A study of Mus musculus with 12 samples.

Results

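Among 6 wells of wild-type C2C12 cells, 2 libraries, those of wells 2 and 5, were rich in RNAs that carry no poly(A) tail. They were chosen by a measured value: the 7SL RNA, counted as the sum over its genes Rn7s1 and Rn7s2, whose transcripts are identical, made up more than 1% of the estimated counts in wells 2 and 5 and less than 1% in wells 1, 3, 4 and 6. The share was 24.8% in well 2 and 8.37% in well 5, the lower of the values above the threshold, and the highest value below it was 0.00319% in well 1. These 2 wells, of 12 in the series, are compared here with the remaining 4 wild-type wells gene by gene. Because the wells were sorted by their own RNA content, the comparison is a description of 2 against 4 libraries and carries no test. An exact permutation test of 2 against 4 wells could in any case not go below a one-sided p of 0.0667.

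C2C12, the line used throughout, consists of mouse myoblasts, muscle precursors that stop dividing and fuse into myotubes once serum is changed. All 12 wells, 6 of the wild-type line and 6 of the ChR2::tdTomato line, which carries a light-gated cation channel joined to a red fluorescent protein, were grown on a fibrin gel 1 mm thick made with 8 mg of fibrinogen per mL. They had 2 days in growth medium with fetal bovine serum and aminocaproic acid, then 6 days in differentiation medium with 10% inactivated horse serum, 1 mg of aminocaproic acid per mL and IGF-1. The labels mention no light stimulation, and say nothing on whether wells were separate cultures. Per the labels' protocols, poly(A)+ RNA was purified on beads, and samples with little RNA were made by ribosomal RNA depletion. Library preparation therefore probably differed for wells 2 and 5, although no label names the depleted samples. Preparation, RNA input and any difference between the wells themselves cannot be told apart.

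Most messenger RNAs end in a poly(A) tail, by which oligo(dT) beads pull them out of total RNA. Several abundant RNAs lack one: the 7SL RNA, core of the signal recognition particle that docks ribosomes at the endoplasmic reticulum; the RNA subunits of RNase P and RNase MRP, which cut precursors of transfer and ribosomal RNA; the 7SK RNA, which holds back a kinase needed for transcript elongation; and the small nucleolar and Cajal body RNAs that guide modification of other RNAs. Messages of replication-dependent histones end in a conserved stem-loop in place of a tail. Depletion of ribosomal RNA leaves all of these in the library, along with unspliced and nuclear transcripts.

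The sequences below, read from GENCODE M21 transcripts on GRCm38, show the RNAs on which the results turn; capitals mark the longest run of A in Bc1 and the stem-loop in the histone messages. The RNase P RNA is Rpph1 (chr14:50807449-50807767, minus strand, the first 300 of its 319 bases shown) and the RNase MRP RNA is Rmrp (chr4:43492788-43493058, minus strand). Bc1 (chr7:144914470-144914637, plus strand) is an RNA polymerase III transcript with an internal A-rich stretch, and H4c8, H2ac4 and H2ac24 show the stem-loop with its flanks.
Rpph1: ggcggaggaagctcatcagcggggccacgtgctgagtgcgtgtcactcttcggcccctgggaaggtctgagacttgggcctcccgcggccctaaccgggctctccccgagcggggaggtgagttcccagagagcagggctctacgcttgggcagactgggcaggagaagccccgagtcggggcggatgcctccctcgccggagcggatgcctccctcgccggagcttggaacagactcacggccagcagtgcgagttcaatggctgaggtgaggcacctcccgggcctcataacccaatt
Rmrp: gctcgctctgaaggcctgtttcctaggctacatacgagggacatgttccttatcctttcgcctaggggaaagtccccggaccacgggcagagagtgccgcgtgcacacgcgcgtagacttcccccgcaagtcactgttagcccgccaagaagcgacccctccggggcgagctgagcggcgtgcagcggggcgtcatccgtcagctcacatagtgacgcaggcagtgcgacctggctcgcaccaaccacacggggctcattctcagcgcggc
Bc1: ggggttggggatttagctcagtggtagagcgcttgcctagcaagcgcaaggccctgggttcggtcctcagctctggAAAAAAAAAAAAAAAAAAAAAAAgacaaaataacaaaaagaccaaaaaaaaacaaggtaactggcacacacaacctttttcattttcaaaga
H4c8: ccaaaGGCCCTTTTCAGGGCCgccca
H2ac4: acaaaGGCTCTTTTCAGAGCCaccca
H2ac24: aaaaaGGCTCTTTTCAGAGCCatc

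Wells 2 and 5 were also the shallowest libraries, with 1061068 and 2809669 estimated counts, against 10268067 to 13628569 in the other wild-type wells and 7388761 to 12229458 in the ChR2 wells. A count of 3, taken as the floor of detection, equals 2.83 CPM (counts relative to the size of the library) on unscaled totals in well 2 and 1.07 CPM in well 5, and at most 0.292 CPM in wells 1, 3, 4 and 6, so counting error was larger in wells 2 and 5. At equal depth, with 7SL left out, the number of genes expected was 14144 in well 2 and 14374 in well 5, above the 13685 to 13966 of the other wild-type wells; with 7SL counted, well 2 had 14146, below their 14163 to 14459, and well 5 had 14765. With 7SL left out, the 10 most abundant genes took 11.96% of counts in well 2 and 7.48% in well 5, and 5.70% to 8.61% in the other libraries. Muscle identity was present in both wells: all 7 muscle markers examined had at least 1 CPM. Myog, a transcription factor of myoblast differentiation, stood at 1319 CPM in well 2 and 972 CPM in well 5 against 661 to 1073 CPM in wells 1, 3, 4 and 6. The other muscle markers did not move together. Mymk was lower in both wells, at 300 and 257 CPM against 342 to 536 CPM, and Ttn was higher in both. Acta1, Myh3, Ckm and Myod1 lay below wells 1, 3, 4 and 6 in well 5 but not in well 2. Markers of macrophages, endothelial cells and adipocytes were scarce. Of 10 macrophage markers 6 were at 0 in both wells, Ptprc and Adgre1 among them, and the list summed to 7.7 and 11.2 CPM against 7.6 to 16.2 CPM in the remaining wild-type wells. Of 10 endothelial markers 8 were at 0, with sums of 20.5 and 7.0 CPM against 5.8 to 8.0 CPM, and of 9 adipocyte markers 7 were at 0. The 12 fibroblast markers summed to 251.7 and 291.0 CPM against 264.2 to 417.2 CPM. Most of that sum was Ly6a, at 189 and 193 CPM in wells 2 and 5. Of the 12, 6 had at least 1 CPM in both wells. Tcf21, Lum and Thy1 were at 0 there, and Tcf21 and Lum were at 0 in every wild-type well. In such bulk samples, fewer cells of a type and less RNA per cell cannot be told apart.

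A gene was counted as apart when wells 2 and 5 lay both above or both below wells 1, 3, 4 and 6 and the means of log2 CPM, scaled by TMM with a prior count of 2, differed by at least 1, which is 2-fold. Of 13692 genes, 684 were higher in wells 2 and 5 (5.00%) and 1539 were lower (11.2%), in all 2223 (16.2%). The median difference over all genes was -0.06. With no fold required, wells 2 and 5 lay above all 10 other libraries for 2115 genes (15.4%) and below all 10 for 2412 (17.6%). Where the difference from the mean of those 10 also had to be at least 2-fold, the numbers were 769 and 1443. Profiles of log2 CPM correlated at r = 0.892 across genes between wells 2 and 5, at 0.823 to 0.847 between well 2 and the other wild-type wells, at 0.870 to 0.905 between well 5 and those wells, and at 0.957 to 0.978 among those wells themselves. Genes are not independent replicates, and the wells differ in depth.

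**Figure D1:**
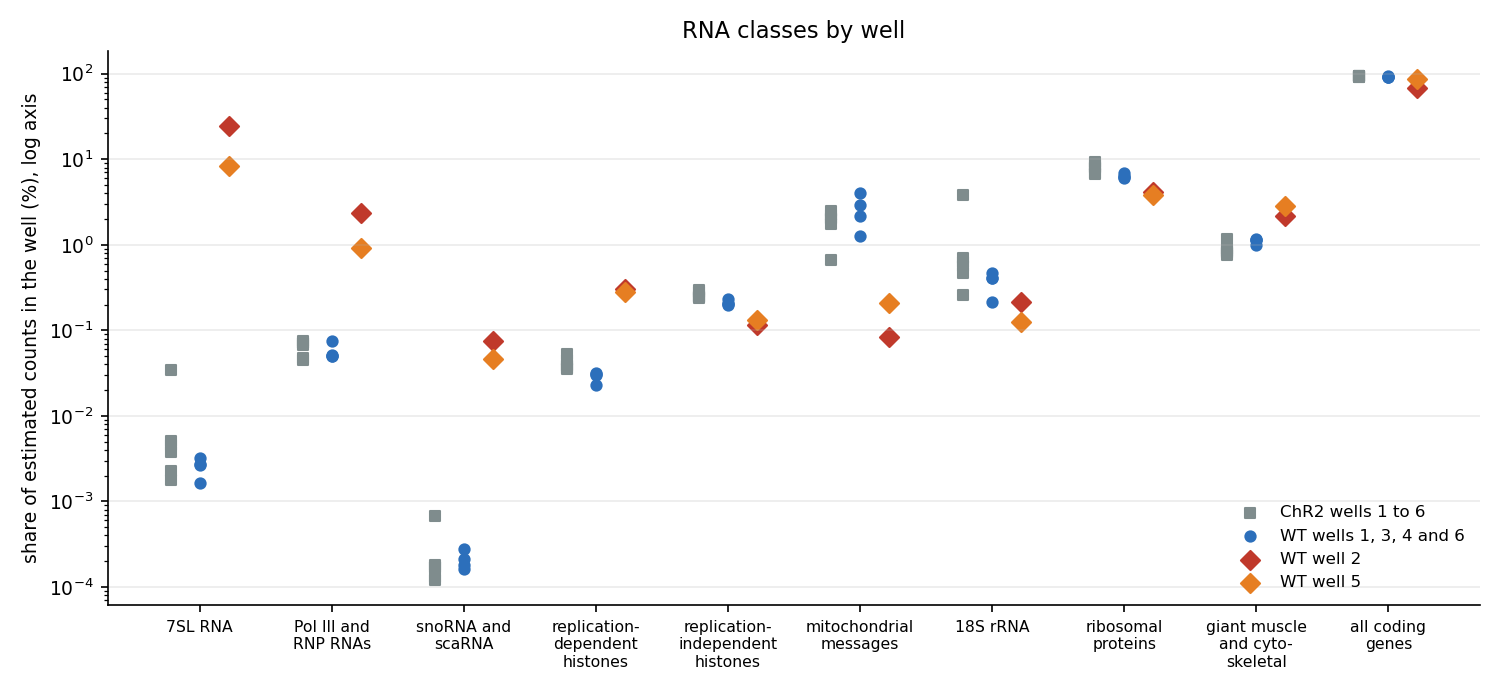
Share of estimated counts taken by each RNA class, in percent on a log axis, with 1 point per well. Wells 2 and 5 of the wild type (diamonds) sit far above all other wells for 7SL, RNA polymerase III, snoRNA and replication-dependent histone RNAs, and below all other wells for mitochondrial messages and ribosomal proteins. Other shares in well 2 are lowered by its 24.8% of 7SL. On TMM-scaled CPM, ribosomal proteins summed to 55922 in well 2 and 37382 in well 5, against 56072 to 65937 in wells 1, 3, 4 and 6.

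RNA polymerase III and related noncoding RNAs other than 7SL made up 2.34% of the library of well 2 and 0.916% of that of well 5, against 0.0498% to 0.0742% in wells 1, 3, 4 and 6 and 0.0453% to 0.0760% in the ChR2 wells. The list had 20 genes, of which 10 were at 0 in every wild-type well and 5 passed the filter on low counts and were in the comparison, and 4 of the 5 were higher and 1 was lower. The filter asks for enough counts in 2 wells, so an RNA near 0 elsewhere could pass through wells 2 and 5 alone, which fixed its count as higher. Rpph1, Rn7sk and Rmrp also passed the filter of the fit of ChR2 against wild type when wells 2 and 5 were left out. Rpph1 read 13357 CPM in well 2 and 5044 CPM in well 5, and 1.07, 1.01, 1.24 and 0.664 CPM in wells 1, 3, 4 and 6. Both wells thus lay far outside the others, with a log2 difference of 12.73 (pooled SD within sides 0.56, n = 2 and 4). Rn7sk, the 7SK RNA, read 15803 and 2600 CPM in wells 2 and 5, and 6.61, 5.96, 6.78 and 4.65 CPM in wells 1, 3, 4 and 6. That difference was 10.02 (pooled SD 0.94), and well 2 held several times more of this RNA than well 5. Rmrp, counted here under the more abundant of its 2 overlapping identifiers, read 2442 and 1235 CPM in wells 2 and 5 and 0.715 to 1.24 CPM in the other wild-type wells (difference 10.55, pooled SD 0.42).

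Bc1, whose A-rich stretch is printed above, was the exception in this list. Its level was 279 CPM in well 2 and 31.2 CPM in well 5, below the 467, 464, 472 and 740 CPM of wells 1, 3, 4 and 6 (difference -2.49, pooled SD 1.15). The value in well 5 was well below that in well 2: the difference from the other wells was -0.91 for well 2 and -4.06 for well 5, so the 2-fold mark was passed on the mean of the pair and by well 5, not by well 2.

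Small nucleolar and Cajal body RNAs took 0.0754% of counts in well 2 and 0.0456% in well 5, and at most 0.00028% in wells 1, 3, 4 and 6. Of the 167 such genes listed, 146 were at 0 in every wild-type well. The filter of the fit of ChR2 against wild type asks for more wells, and 0 passed that one with or without wells 2 and 5. The 11 that passed the filter used here were near 0 in the other wild-type wells. Most of them thus passed it through wells 2 and 5, so that 10 were higher was largely fixed by the filter. Their median difference was 6.45, and 4.26 without the filter. The remaining one, Snord3b4, was at 136 CPM in well 2 but at 0 in well 5. Snora73b, a guide RNA of the H/ACA class, read 80.9 and 39.3 CPM in wells 2 and 5 and 0.734 to 0.992 CPM in the other wild-type wells (difference 5.65, pooled SD 0.39). Scarna2 read 299 and 96.1 CPM, with 1 count in all 4 of the remaining wild-type wells together, and Snora74a read 37.2 and 13.7 CPM with 0 counts there. The genes in whose introns snoRNAs lie gave another picture: of 21 host genes in the comparison 0 were higher and 5 were lower (23.8%). Over all genes 5.00% were higher and 11.2% were lower, so with 21 genes little can be read from these counts. The median difference of the host genes was -0.24, or -0.39 without well 2. Small nuclear RNA genes passed the filter through wells 2 and 5 as well: the 5 in the comparison, all predicted genes, were at or near 0 in wells 1, 3, 4 and 6, so nothing is read from their count.

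Replication-dependent histone messages, which package newly made DNA, took 0.302% of counts in well 2 and 0.278% in well 5, against 0.0228% to 0.0317% in wells 1, 3, 4 and 6 and 0.0357% to 0.0531% in the ChR2 wells. Unlike the polymerase III RNAs, they were at nearly the same share in both wells. The share in well 2 was lowered by its 7SL, and on TMM-scaled CPM they summed to 4113 in well 2 and 2736 in well 5. Of the 66 genes listed, 3 were at 0 in every wild-type well and 46 were in the comparison; 43 were higher and 1 was lower. Many of them were near 0 in the other wild-type wells and passed the filter through wells 2 and 5. The filter of the fit of ChR2 against wild type asks for more wells. It passed 16 with all 12 wells and 17 without wells 2 and 5. The median difference was 5.90, and 4.31 without the filter. By family, 5 of 5 H1, 9 of 10 H2A, 8 of 10 H2B, 10 of 10 H3 and 11 of 11 H4 genes were higher. H1f4, a linker histone, read 238 and 189 CPM in wells 2 and 5 and 1.52, 1.10, 0.413 and 0.812 CPM in wells 1, 3, 4 and 6 (difference 7.56, pooled SD 0.55). H4c8 read 230 and 91.5 CPM against 0.0827 to 0.369 CPM (difference 8.27, pooled SD 0.59). H3c13 read 42.4 and 46.6 CPM, and H2ac4 25.7 and 27.4 CPM, with 0 counts in all 4 of the other wild-type wells; against a floor of 3 counts per library these were higher by at least 7.46 and 6.71 on the log2 scale. Histone genes of 1 family are close copies of each other, so the level of a single copy is less certain than the sum of its family.

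**Figure D2:**
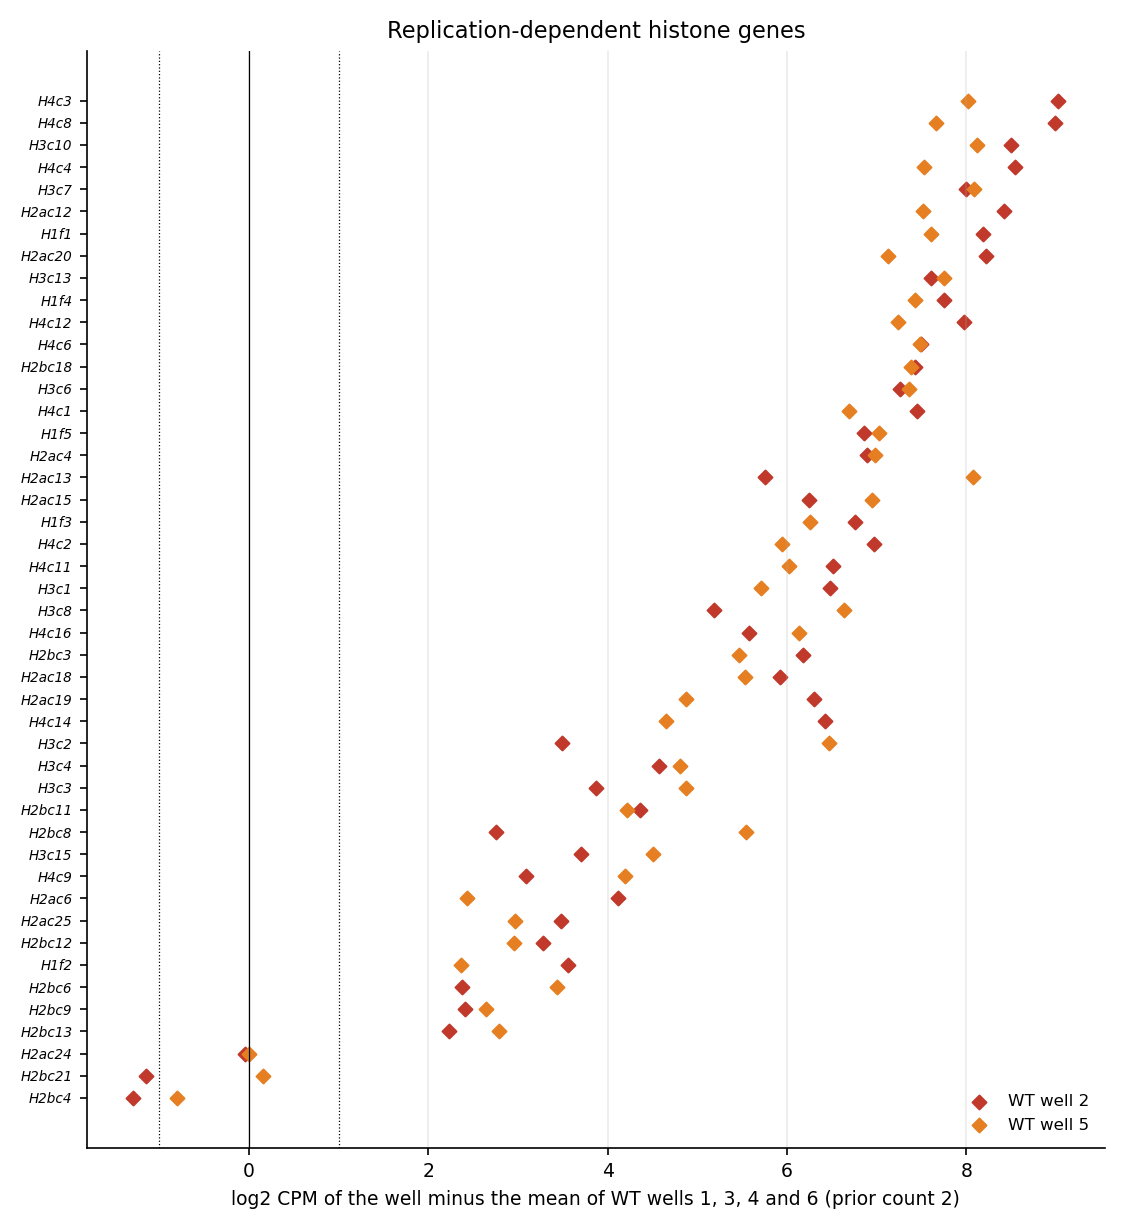
Difference of log2 CPM from the mean of wild-type wells 1, 3, 4 and 6 for each of 46 replication-dependent histone genes, in well 2 (red) and well 5 (orange), with dotted lines at 2-fold. All but H2ac24, H2bc21 and H2bc4 lie to the right of the upper line in both wells; where the other wells are at 0, the position depends on the prior count of 2.

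Of the 3 histone genes that were not higher, H2bc4 and H2ac24 had readable levels in the other wells, while H2bc21 was low throughout. H2bc4 read 25.7 and 36.1 CPM in wells 2 and 5 and 54.2 to 70.9 CPM in wells 1, 3, 4 and 6 (difference -1.05, pooled SD 0.23). H2ac24 read 41.1 and 42.4 CPM, inside the 21.9 to 112 CPM of the other wells, and H2bc21 was at or below 3.51 CPM in all wild-type wells. H1f2 and H2ac25 stood out among those that were higher, since they too were well above the floor elsewhere. H1f2 read 1439 and 630 CPM against 97.4 to 151 CPM (difference 2.96), and H2ac25 read 107 and 74.3 CPM against 9.08 to 9.65 CPM (difference 3.22). Some histone genes are known to give polyadenylated transcripts in differentiated cells, in addition to those that end in the stem-loop.

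The stem-loop was searched for, on the transcript strand, in the last 100 bases of 1 transcript per gene. It was found in 18 genes of the table, and among 12148 coding genes in the comparison in 11 (0.0905%), all on the histone list. Of these 11 genes 10 were higher in wells 2 and 5, and H2ac24 was the one that was not. Some of them, such as H4c8 and H2ac4, were near 0 elsewhere and passed the filter through wells 2 and 5, which fixed their count as higher. On the whole histone list 43 of 46 were higher, so the match did not set these genes apart from the rest of the list. A further 35 histone genes in the comparison held no match in the transcript searched, which says only that these letters were not in that window. The 11 histones listed as replication-independent, whose messages mostly have a tail, gave 1 higher and 0 lower. Their median of 0.15 turned to -0.12 on unscaled CPM, to -1.35 on log2(TPM + 1), and to -0.05 and -0.13 without well 2 or well 5. Whether each of their messages has a tail was not examined. The higher one was H2ax, the variant phosphorylated at DNA breaks, at 42.4 and 38.9 CPM against 12.6 to 19.7 CPM, a direction that reversed on log2(TPM + 1) (-0.11), on which the median of all genes was -1.13.

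Nuclear long noncoding RNAs moved unevenly. Of 14 in the comparison 3 were higher and 1 was lower, and their median difference was 0.34, against 0.20 without well 2, 0.07 without well 5, and -1.10 on log2(TPM + 1), where the median of all genes was -1.13. Malat1, an abundant RNA of nuclear speckles whose end is cut to a triple helix in place of a tail, read 8710 and 9684 CPM in wells 2 and 5 and 1572, 830, 1059 and 1425 CPM in wells 1, 3, 4 and 6. Its levels in wells 2 and 5 were alike, unlike those of 7SL (difference 2.95, pooled SD 0.37). Lncpint read 32.1 and 27.7 CPM against 0.369 to 2.95 CPM (difference 4.62, pooled SD 0.97). Gas5, a spliced snoRNA host, was the lower one, at 61.6 and 42.8 CPM against 85.5 to 136 CPM. H19, an imprinted and polyadenylated RNA among the most abundant here, read 34799 CPM in well 2 but 17550 CPM in well 5, which lay within the 13124 to 19022 CPM of the others.

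Transcripts of the mitochondrial genome were at the opposite end. Its 13 messages encode subunits of the respiratory chain and ATP synthase, and most of them receive short tails. They took 0.0842% of counts in well 2 and 0.211% in well 5. The share was 1.28% to 4.02% in wells 1, 3, 4 and 6 and 0.670% to 2.48% in the ChR2 wells. Of the 13, 12 were lower and 0 were higher, with a median difference of -4.86. mt-Co1, a subunit of cytochrome oxidase, read 424 and 1338 CPM in wells 2 and 5 and 12230, 4797, 9346 and 17490 CPM in wells 1, 3, 4 and 6 (difference -3.72, pooled SD 0.90). mt-Cytb, of complex III, read 20.5 and 91.2 CPM against 900 to 3041 CPM (difference -5.32, pooled SD 1.01). For mt-Nd4l, wells 2 and 5 read 0 and 6.31 CPM, while wells 1, 3, 4 and 6 ran from 20.6 to 168 CPM. The other wild-type wells themselves thus spread over several-fold for these messages.

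Among them, mt-Atp6 and mt-Co3 were listed at 0 in both wells while they read 1117 to 3367 CPM and 364 to 1114 CPM in wells 1, 3, 4 and 6. mt-Nd3 was also listed at 0 in both, against 10.1 to 35.0 CPM. Since mt-Atp8 and mt-Nd4, encoded nearby, were read at 8.99 and 5.96 CPM and at 33.4 and 97.5 CPM, and since the counts are estimates, these are reported as listed at 0 and not as absent. mt-Nd6, the message encoded on the other strand of the mitochondrial genome, was the single one of the 13 not apart, at 65.5 CPM in well 2 and 15.1 CPM in well 5 and 13.0 to 44.2 CPM in the other wild-type wells. Both mitochondrial ribosomal RNAs were lower: mt-Rnr2 read 675 and 721 CPM against 1351 to 4498 CPM, and mt-Rnr1 read 74.5 and 68.4 CPM against 210 to 489 CPM. The cytosolic 18S RNA, listed as Rn18s-rs5, took 0.215% and 0.125% of counts in wells 2 and 5 and 0.216% to 0.469% in wells 1, 3, 4 and 6.

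**Figure D3:**
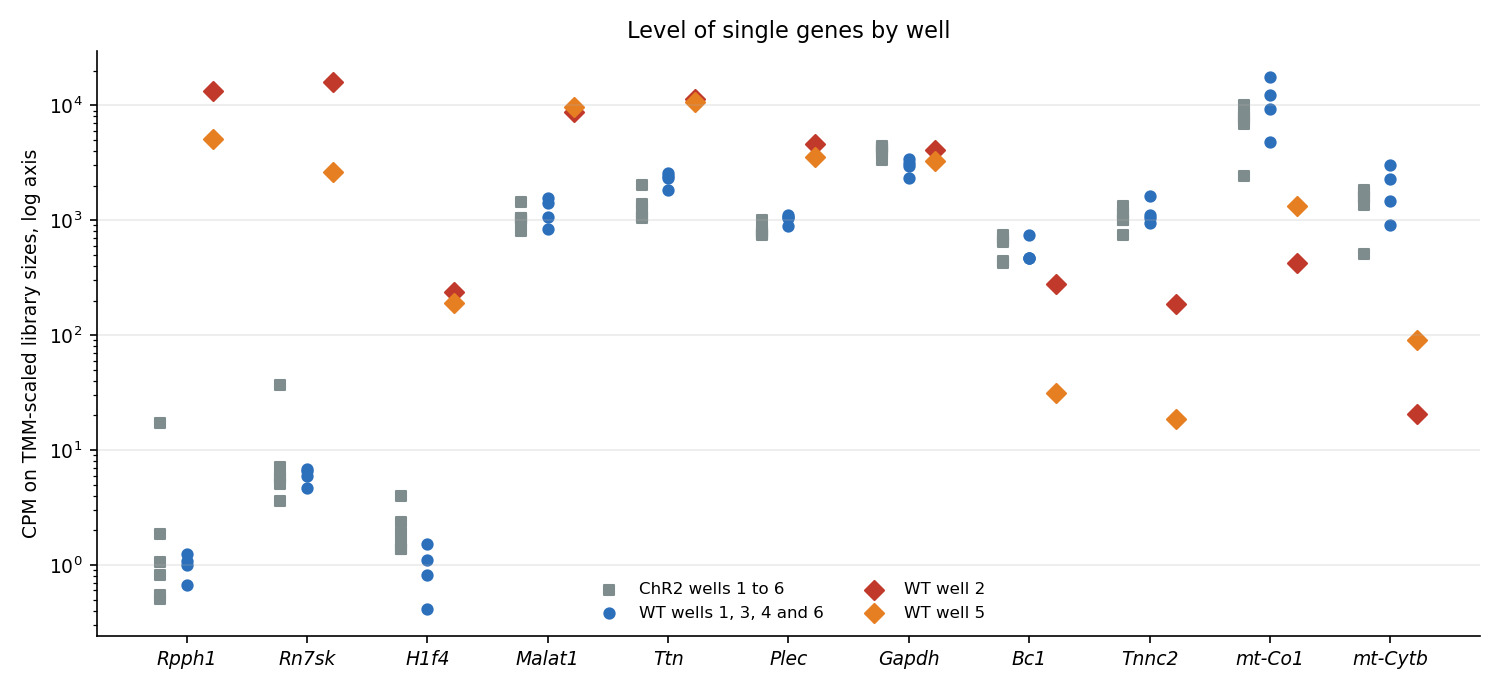
Level of 11 genes in every well, as CPM on TMM-scaled library sizes on a log axis. Wells 2 and 5 lie above all other wells for Rpph1, Rn7sk, H1f4, Malat1, Ttn and Plec, among them for Gapdh, and below all others for Bc1, Tnnc2, mt-Co1 and mt-Cytb.

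Coding genes were apart by their length and base composition. The 12148 nuclear coding genes in the comparison held 456 higher (3.75%) and 1231 lower (10.1%). Among 605 with a GC content under 40%, 2 were higher and 231 were lower, while among 593 of at least 60% GC, 112 were higher and 20 were lower. The median difference rose from -1.12 to 0.72 over these bins in well 2 and from -0.59 to 0.43 in well 5. The gap between the highest and the lowest bin was 1.84 in well 2 and 1.02 in well 5, and it lay between -0.25 and 0.23 in the other 10 libraries. Base composition and length were also combined: of 145 coding genes with less than 1000 expressed bases and under 45% GC, 87 were lower and 1 was higher, and of 412 with at least 4000 bases and at least 55% GC, 55 were higher and 3 were lower.

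Length told the wells apart from each other. From coding genes under 500 expressed bases (n = 68) to those of 8000 or more (n = 282), the median difference went from -0.97 to 0.57 in well 5 and from -0.51 to 0.16 in well 2, a gap of 1.53 and 0.67. In the other 10 libraries the gap ran from -0.74 to 0.19. GC content correlated with the difference across genes more in well 2 (Spearman's rho 0.49 over 12148 genes) than in well 5 (0.36), and expressed length more in well 5 (0.32 over 12129 genes) than in well 2 (0.02). For wells 1, 3, 4 and 6, each set against the rest of them, rho ran from -0.132 to 0.202 for GC content. For length it ran from -0.128 to 0.119, a range that holds the value of well 2. These are correlations across genes of 1 library each, and long transcripts here were poorer in GC (rho -0.19).

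**Figure D4:**
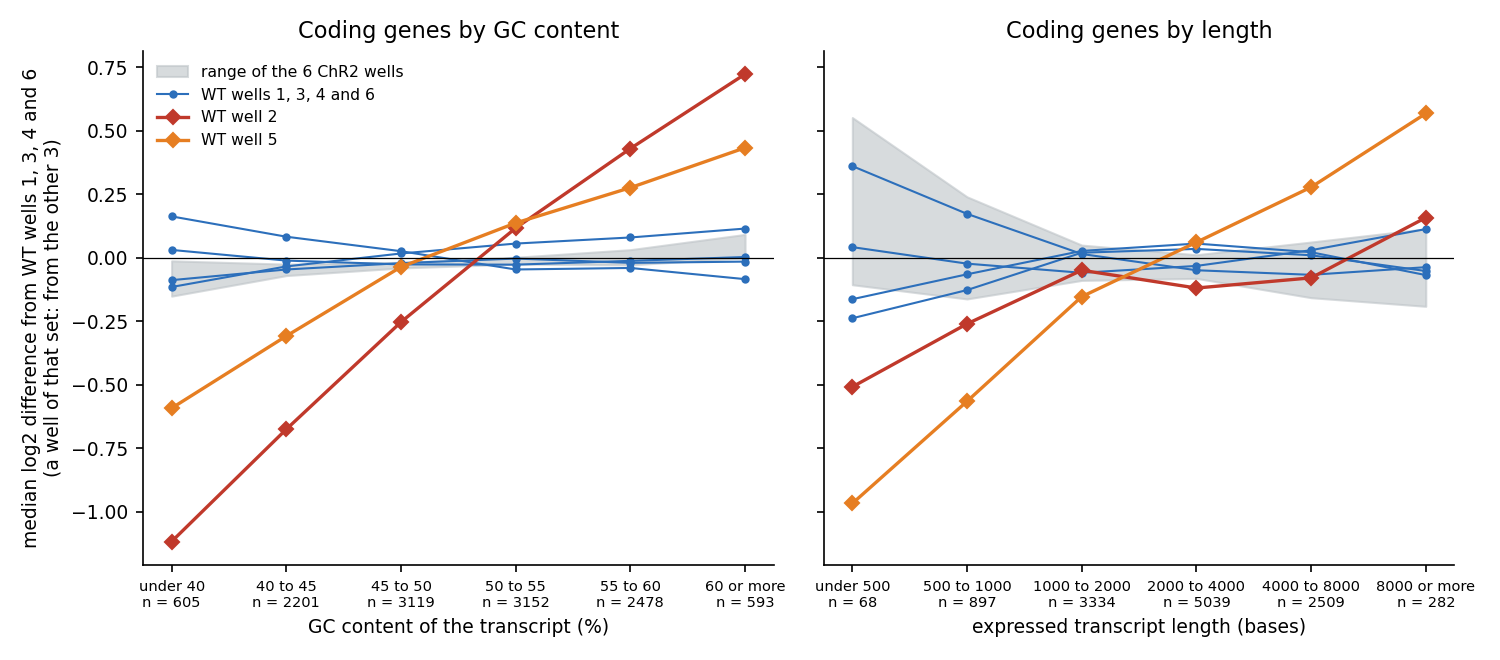
Median log2 difference of nuclear coding genes from wild-type wells 1, 3, 4 and 6, by GC content (left) and by expressed length (right), with the number of genes per bin. Wells 2 and 5 rise with GC content from -1.12 and -0.59 to 0.72 and 0.43 while the other wells stay near 0, and well 5 rises with length more than well 2.

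Fragment length also differed. The deposited counts and TPM of a gene give the effective length the authors' tool used, and over genes with 1 transcript it fell short of the transcript by a constant within a library: 93.2% to 96.7% of these genes lay within 2 bases of the line. That constant, read as the mean fragment length, was 176.0 bases in well 2 and 186.0 bases in well 5. It was 194.5 to 210.2 bases in wells 1, 3, 4 and 6 and 194.9 to 203.3 bases in the ChR2 wells, so both wells lay below all 10 others. The labels give a fragmentation time for the depleted samples alone. The effective length of short transcripts, 7SL and histones among them, depends on this value.

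**Figure D5:**
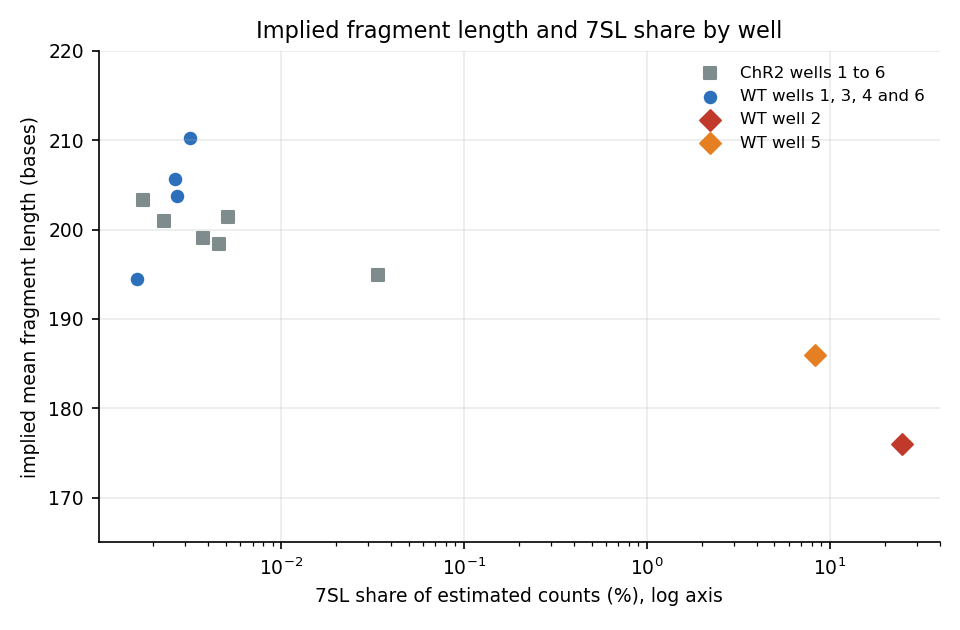
Implied mean fragment length in bases against the share of counts that is 7SL RNA, in percent on a log axis, with 1 point per well. Wells 2 and 5 stand at 176.0 and 186.0 bases, below the 194.5 to 210.2 bases of the other wells; the vertical axis does not start at 0.

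Giant muscle and cytoskeletal genes took 2.19% and 2.86% of counts in wells 2 and 5, against 1.00% to 1.18% in wells 1, 3, 4 and 6. Of 30 in the comparison 7 were higher (23.3%) and 1 was lower. Over coding genes 3.75% were higher, and among those of 8000 or more expressed bases 10.3%. Whether this list differed from other coding genes of like length was not tested. Its median difference was 0.75, which on log2(TPM + 1) became -0.812 while that of all genes was -1.13. Ttn, the molecular spring of the sarcomere and the longest message here, read 11261 and 10612 CPM in wells 2 and 5 and 1815, 2447, 2315 and 2552 CPM in wells 1, 3, 4 and 6 (difference 2.27, pooled SD 0.19). Both wells gave nearly the same level for this gene, and on log2(TPM + 1) its difference was 1.30. Plec, a cytoskeletal crosslinker, read 4583 and 3527 CPM against 896 to 1118 CPM (difference 1.97, pooled SD 0.18). Ahnak read 3531 and 4184 CPM against 877 to 1258 CPM (difference 1.84). Macf1, Dst and Lrp1 differed by 1.00, 1.04 and 1.03, and each turned negative on log2(TPM + 1) (-0.841, -0.798 and -0.177, above that median of all genes). Neb, a giant actin ruler, was not apart, at 755 and 890 CPM within 658 to 1335 CPM, and Xirp2 was lower.

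Coding genes under 500 expressed bases were lower in 41.2% of cases and those of 500 to 1000 bases in 27.9%, against 10.1% over coding genes. Of 86 cytosolic ribosomal protein genes 34 were lower and 2 were higher, with a median of -0.70, and of 68 nuclear subunits of oxidative phosphorylation 23 were lower and 0 were higher, with a median of -0.46. Cox6c, a cytochrome oxidase subunit, read 75.8 and 32.6 CPM against 327 to 480 CPM (difference -2.92, pooled SD 0.48). Among the ribosomal proteins, Rplp0, of the stalk, was at 1699 and 1721 CPM, within the 1686 to 1892 CPM of the others, so the list did not shift as a whole. Fau and Rpl37a were the 2 higher ones, chiefly through well 2 (3277 and 1669 CPM there, 893 and 576 CPM in well 5), and both reversed on log2(TPM + 1) (-0.078 and -0.465, with -1.13 as the median of all genes). For the oxidative phosphorylation genes the median was -0.88 without well 2 and -0.08 without well 5.

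Sarcomere genes with short messages gave 6 lower and 0 higher of 24. The share lower was above the 10.1% over coding genes, but slightly below the 27.9% of coding genes of 500 to 1000 expressed bases. Whether this list differed from other coding genes of like length was not tested. Its median was -0.44, which became -1.02 without well 2 and 0.11 without well 5. Tnnc2, the calcium sensor of fast fibres, read 187 CPM in well 2 and 18.6 CPM in well 5 against 939, 1108, 1040 and 1615 CPM in wells 1, 3, 4 and 6 (difference -4.27, pooled SD 1.21). Its slow and cardiac counterpart Tnnc1 read 12175 CPM in well 2 but 2147 CPM in well 5, which lay within the 1735 to 2608 CPM of the other wells. Tnnt3, fast troponin T, read 425 and 120 CPM against 774 to 1987 CPM. Myosin heavy chains gave 1 higher, the non-muscle Myh9, and 0 lower of 10. Myh9 read 1421 and 1718 CPM against 525 to 734 CPM, and reversed on log2(TPM + 1) (-0.23, with -1.13 as the median of all genes).

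In most lists of the myogenic programme and metabolism the share apart was near or below the 16.2% of all genes. Of 21 myogenic regulators 0 were higher and 3 were lower, namely Myf5, Rb1 and Mef2c, the last at 122 and 67.3 CPM against 131 to 351 CPM, and of 18 glycolysis genes 0 were apart. Gapdh read 4078 and 3292 CPM against 2334 to 3432 CPM. Of 36 cell cycle genes 1 was higher and 4 were lower, with a median of -0.44 that was 0.12 without well 2 and -0.98 without well 5. Bub1, a spindle checkpoint kinase, was at 0 in well 2 and at 11.2 CPM in well 5 against 12.1 to 37.4 CPM, so its call rests on well 2. Of 18 NRF2 and glutathione genes 3 were higher (Cbr3 and the near-identical Gstp1 and Gstp2) and 0 were lower, with a median of 0.91. That median was 1.38 without well 2, 0.46 without well 5, 0.54 without well 6, and -0.25 on log2(TPM + 1), where the median of all genes was -1.13. Immediate early genes gave 2 higher and 1 lower of 25, matrix genes 1 and 3 of 27, stress response genes 1 and 2 of 16, and microRNA genes 0 and 1 of 5. Nqo1, an NRF2 target by which the wild-type wells also differ, read 57.8 and 80.3 CPM in wells 2 and 5, within the range of 158, 100, 20.1 and 12.4 CPM in wells 1, 3, 4 and 6, and 5.91 to 8.61 CPM in the ChR2 wells.

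Among the 15 largest lower genes with an established symbol and at least 20 CPM in wells 1, 3, 4 and 6, 10 were mitochondrial, and the others were Btf3l4b, Tnnc2, Slirp, Gng5 and Tmem126a. Slirp, which stabilises mitochondrial messages, read 1.28 and 10.5 CPM in wells 2 and 5 against 60.5 to 74.3 CPM (difference -4.03, pooled SD 1.01). Gng5, a G protein subunit, read 5.14 and 11.6 CPM against 82.0 to 106 CPM (difference -3.53, pooled SD 0.42). Btf3l4b was at 0 in well 2 and at 7.71 CPM in well 5 against 31.3 to 37.5 CPM. Slirp, Gng5 and Tmem126a had fewer than 1000 expressed bases and under 45% GC.

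The series set ChR2 wells against wild-type wells, and wells 2 and 5 entered that comparison as 2 of 6 wild-type replicates. With all 12 wells, edgeR's quasi-likelihood test with Benjamini-Hochberg adjustment called 3701 of 13168 genes (28.1%) at an adjusted p under 0.05, 1838 higher (14.0%) and 1863 lower (14.1%) in ChR2. Without wells 2 and 5 it called 4749 of 13484 (35.2%), 2545 higher (18.9%) and 2204 lower (16.3%), and 3334 genes were called in the same direction both ways. Of 4 polymerase III RNAs 3 were called lower in ChR2 with 12 wells and 0 without wells 2 and 5. For Rpph1 the log2 fold change of ChR2 over wild type was -9.79 (SE 3.06, edgeR adjusted p = 0.036) with 12 wells and 1.83 (SE 1.13, adjusted p = 0.24) without them. Malat1 went from -1.90 (SE 0.59, edgeR adjusted p = 0.027) to -0.20 (SE 0.19, adjusted p = 0.43). Rpph1 averaged 3.68 ± 6.70 CPM in the ChR2 wells (SD, n = 6), with 17.3 CPM in well 4 and 0.507 to 1.86 CPM in the other 5, and 0.997 ± 0.242 CPM in wells 1, 3, 4 and 6 (SD, n = 4).

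Other genes gained calls. Of 16 replication-dependent histones tested with 12 wells 2 were called higher and 1 lower, and without wells 2 and 5 the numbers were 6 and 0 of 17. H2ac25 changed from -0.76 (SE 0.67, edgeR adjusted p = 0.43) to 0.91 (SE 0.13, adjusted p = 0.000167), with 17.5 ± 2.4 CPM in the ChR2 wells (SD, n = 6) and 9.35 ± 0.271 CPM in wells 1, 3, 4 and 6 (SD, n = 4). Cytosolic ribosomal proteins went from 23 higher and 0 lower of 86 to 46 higher and 1 lower, and glycolysis genes from 6 to 13 higher of 18. Giant genes went from 2 higher and 10 lower of 30 to 6 higher and 7 lower of 31. Lrp1 changed from 0.33 (SE 0.24, edgeR adjusted p = 0.31) to 0.79 (SE 0.13, adjusted p = 0.00061), and Dst from -0.71 (SE 0.25, adjusted p = 0.046) to -0.25 (SE 0.17, adjusted p = 0.26), a direction that turned to 0.03 with limma on log2(TPM + 1) over 12 wells. Coding genes under 40% GC went from 70 higher and 40 lower of 593 to 75 higher and 135 lower of 598, and those of at least 60% GC from 62 higher and 92 lower of 556 to 125 higher and 69 lower of 563. Cell cycle genes kept their direction, with 29 of 36 called higher in ChR2 with 12 wells and 30 without wells 2 and 5.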

How the data were processed

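RNA was sequenced from 12 wells. Estimated counts, not all whole, and TPM were deposited by the authors in separate files covering 56941 genes; columns left unused numbered 0. Salmon, STAR, bedtools 2.25.0 and BWA 0.7.12-r1039 are named in the submitters' processing notes, with builds GRCm39, mm10 and hg19; their roles are not given in the sources used here. Groups came from the genotype label. The members and gene lists were chosen with earlier results of these data known.

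Estimated counts were rounded. For wild-type wells, genes were kept by filterByExpr (minimum count 10, smallest set 2), scaled by TMM over all 12 libraries and expressed as log2 CPM with a prior count of 2 (edgeR 4.0.16, R 4.3.3). A gene was apart at no overlap and at least 2-fold; no p was computed. Named genes were the 15 largest in each direction among genes apart with at least 20 CPM in the lowest well of the higher side and an established symbol, up to 2 members per direction of each of 26 lists (at least 1 CPM, otherwise the 2 most abundant), and the 4 markers; further genes were picked after their values were seen, and some named items are not reported here. For ChR2 against wild type, the quasi-likelihood test of edgeR (robust dispersion, Benjamini-Hochberg adjustment) was run on 12 wells and without wells 2 and 5, and checked on simulated counts. Since no label names separate cultures, its p-values reflect well-to-well spread alone, which may be technical.

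Other settings were DESeq2 size factors, upper-quartile and no scaling, RNAs without a tail removed first, log2(TPM + 1) and log2(TPM + 0.1), another prior count, filter or fold, all 10 other libraries as reference, each library left out, DESeq2 1.42.0, limma 3.58.1 and the replicate block. TPM divides by the effective length, which is small for short RNAs, so TPM of all other genes falls where such RNAs abound. Transcript sequence, GC content and biotype came from GENCODE M21; 51948 genes matched by identifier, 995 by symbol and 3998 were unmatched. Expressed length was taken from the deposited counts and TPM, and was had for 12129 of 12148 coding genes (99.8%). No pair of libraries of a line agreed within sampling noise (lowest chi-square per degree of freedom 5.09). Intervals and floors cover counting error only, since amplified reads carry no molecular identifiers.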

Additional observations from a re-analysis of the deposited data

Results flagged for a closer look

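In 38 groups of wells, class shares were looked at for a well far from the other wells of its line, and 6 such values were found; chance gives about 1 in 20 groups. Among wild-type wells, well 2 stood apart for 7SL RNA at 24.76% of counts, which is the value that chose it, and for protein-coding genes at 67.44%, a share that 7SL counts lower directly; neither is to be set against chance. Well 5, with 8.37% and 85.5%, lay between well 2 and the rest. Among ChR2 wells, well 4 stood apart with 0.03408% of counts as 7SL RNA, 0.00067% as small nucleolar and Cajal body RNAs and 3.767% as 18S ribosomal RNA. Its 7SL share is far under the 1% that chose wild-type wells 2 and 5. ChR2 well 2 stood apart with 1.176% of counts in giant muscle and cytoskeletal genes, which was under the 2.19% and 2.86% of wild-type wells 2 and 5.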

How the results depend on the processing

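The number of genes apart, 2223 as reported, was 7172 on log2(TPM + 1) and 8232 on log2(TPM + 0.1), where the median of all genes shifted by -1.065 and -1.356, 3356 without a filter on low counts, 978 with at least 20 CPM on the higher side, 4208 at 1.5-fold and 725 at 4-fold. Column sums without scaling shifted that median by -0.263 and gave 399 higher and 2219 lower (15.2% higher, against 30.8% of 684 and 1539), while log2(TPM + 1) gave 115 and 7057. Leaving out each wild-type well gave 2119 to 4760 genes, the highest without well 5 and 2882 without well 2. The gap between GC-rich and GC-poor coding genes was 1.441, 0.899 on log2(TPM + 1) and 1.024 to 1.842 with a well left out. The gap between long and short coding genes was 1.120, 1.734 on log2(TPM + 1) and 0.667 to 1.538 with a well left out.

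On log2(TPM + 1) and log2(TPM + 0.1), the direction reversed for H2ax (-0.108 and -0.122), Fau (-0.078 on both), Rpl37a (-0.465 on both), Myh9 (-0.233 and -0.237), Jund (-0.046 and -0.048), Col1a1 (-0.525 and -0.531) and Hspb1 (-0.03 and -0.031), and on the latter for Cdt1 (-0.031); each stayed above the median of all genes on these scales (-1.129 and -1.42), and the cause was not tested.

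For ChR2 against wild type, 3701 genes were called as reported by edgeR's quasi-likelihood test, 4749 without wild-type wells 2 and 5, 4316 by DESeq2, 3644 with DESeq2 size factors, 3077 without a filter, 607 and 257 by limma on log2(TPM + 1) and log2(TPM + 0.1), and 2822 to 4115 with a library left out. Without wells 2 and 5 the log2 fold change turned to 0.904 for Rn7s1, 0.822 for Rn7sk, 1.828 for Rpph1, 1.713 for Rmrp, 1.101 for H1f4, 0.911 for H2ac25 and 0.328 for Ier2, each of which was higher in wells 2 and 5 than in the other wild-type wells; for Rpph1, Rn7sk and Rmrp the ChR2 well 4 read 17.3, 37.0 and 11.96 CPM and the other ChR2 wells at most 1.86, 7.14 and 2.03 CPM. By limma on the TPM scales it turned to 0.144 and 0.146 for Macf1 and to 0.032 and 0.034 for Dst; the cause was not tested. With the replicate block 2641 genes were called; wells with the same number correlated at -0.115 to 0.073 in their deviations, so the numbers were not taken to pair wells.

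Depth limits what wells 2 and 5 can show for genes near the floor of 3 counts, and leaving out either leaves 1 well on its side.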
